A study of Mus musculus with 19 samples.

Results

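A set of 9 genes of hepatic glucose production and insulin signalling were followed in mouse liver, out of 55416 gene lines in the count table. They were found by matching Ensembl IDs to the symbols Pcx, Pck1, Fbp1, G6pc, Slc37a4, Foxo1, Ppargc1a, Klf15 and Irs2. The matching used no measured value, but the genes were chosen with earlier results of these data known. All 9 were matched, and all 9 were among the 15570 genes that passed the filter on low counts. The samples were 19 poly(A) RNA libraries from livers of C57BL/6 mice. Of these, 4 came from non-injected WT mice (normal), 4 from WT mice given vehicle, 4 from WT mice given furosemide, 4 from IL-6 -/- mice given vehicle and 3 from IL-6 -/- mice given furosemide. Injected mice received 2 intraperitoneal doses of vehicle or of 4 mg furosemide, a loop diuretic, with 3 h between doses, and the liver was taken 6 h after the first. Furosemide-treated mice carry the label pre-renal azotemia (PRA), a state in which poorly perfused kidneys leave nitrogenous waste in the blood. No IL-6 -/- mouse was left uninjected, so every comparison of that genotype with normal liver differs in genotype and injection at once. The sources used here give no feeding state, sex, age or time of day. Nor do they say whether each replicate is its own animal, so a p-value here covers only the spread among the libraries at hand, part of which may be technical.

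Gluconeogenesis makes glucose from lactate, glycerol and amino acids, and the liver is its main site during fasting. Pyruvate carboxylase (Pcx) and phosphoenolpyruvate carboxykinase (Pck1) bypass the pyruvate kinase step of glycolysis, fructose-1,6-bisphosphatase (Fbp1) and glucose-6-phosphatase (G6pc) release phosphate further on, and the transporter Slc37a4 carries glucose-6-phosphate into the endoplasmic reticulum, where G6pc acts. Glucagon, through cAMP, and glucocorticoids raise transcription of this pathway in hepatocytes. The factors Foxo1 and Klf15 and the coactivator Ppargc1a take part in that control, and insulin opposes it by acting through receptor substrates such as Irs2 and through Akt, which keeps the Foxo1 protein out of the nucleus. Transcript levels report neither this shuttling of Foxo1 nor enzyme activity.

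The promoters of the 4 genes that rose in both genotypes are shown here because cAMP control of gluconeogenic genes was worked out on the Pck1 promoter. Each is the window of 250 bases before the start of the gene, from RefSeq on build GRCm38.p6, which is older than the GRCm39 build of the counts. The windows are chr2:173152823-173153072 for Pck1, chr9:44396696-44396945 for the first of 3 Slc37a4 starts, chr3:52268087-52268336 for Foxo1 and chr6:90462326-90462575 for Klf15, all on the plus strand. Capitals mark the core letters of the cAMP response element, searched as TGACG and, for the other strand, CGTCA.
Pck1: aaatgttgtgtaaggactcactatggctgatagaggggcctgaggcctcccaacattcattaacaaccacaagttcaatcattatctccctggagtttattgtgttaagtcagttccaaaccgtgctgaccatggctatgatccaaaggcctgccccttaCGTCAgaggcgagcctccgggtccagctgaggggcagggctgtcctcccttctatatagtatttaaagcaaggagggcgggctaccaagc
Slc37a4: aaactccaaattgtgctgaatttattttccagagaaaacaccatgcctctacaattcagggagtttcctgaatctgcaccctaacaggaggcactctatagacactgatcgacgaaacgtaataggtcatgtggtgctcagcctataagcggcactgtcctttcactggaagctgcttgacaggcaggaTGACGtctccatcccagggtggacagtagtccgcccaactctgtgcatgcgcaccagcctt
Foxo1: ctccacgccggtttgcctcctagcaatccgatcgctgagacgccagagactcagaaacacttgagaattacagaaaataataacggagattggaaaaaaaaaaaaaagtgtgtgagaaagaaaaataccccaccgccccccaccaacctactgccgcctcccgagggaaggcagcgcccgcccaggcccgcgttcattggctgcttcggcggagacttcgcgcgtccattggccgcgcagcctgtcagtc
Klf15: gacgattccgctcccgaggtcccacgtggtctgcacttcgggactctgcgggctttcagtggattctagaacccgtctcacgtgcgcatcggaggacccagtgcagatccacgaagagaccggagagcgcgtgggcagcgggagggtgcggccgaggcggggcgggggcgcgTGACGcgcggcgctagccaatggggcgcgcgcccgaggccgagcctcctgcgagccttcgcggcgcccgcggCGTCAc
The Pck1 core begins 90 bases before the start, near where the cAMP response element of the rat promoter was mapped. That of Slc37a4 begins 61 bases before its start, and Klf15 has 2, which begin 78 and 6 bases before. Ppargc1a, which rose in the knockout comparison, has 1 that begins 49 bases before its start. In all, 4 of the 9 genes had such a core in 5 of their 12 windows, beside 17.8% of all 32851 promoter windows of this length. The first 2 Slc37a4 windows overlap and hold 1 of these cores in common, which is counted in both. The full palindrome TGACGTCA, held by 1.55% of all windows, was in none of the 12 windows. Neither was the form GTAAACA (or TGTTTAC) of the FOXO site, held by 3.17% of all windows. The glucocorticoid response element core AGAACA (or TGTTCT), held by 16.1%, was also in none of the 12. Only these exact letters were searched, so other forms of these sites were not counted. These matches describe letters in a window and say nothing of binding.

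Depth was 32073865 to 74041441 gene counts per library. The targeted gene Il6 was at 4 counts or fewer in every WT library and at 1 to 16 counts in libraries labelled IL-6 -/-, so it does not check the genotype labels. "Knockout" below stands for libraries labelled IL-6 -/-. The libraries were rich in hepatocyte markers (7 of 8 matched), which summed to 79432.2 to 93013.1 CPM in normal libraries. The sums were 84538.5 to 111079 CPM in WT vehicle and 117727 to 131067 in WT PRA libraries. They were 108553 to 120198 CPM in knockout vehicle and 121763 to 165290 in knockout PRA libraries. Levels in CPM are counts divided by the scaled library total. Kidney tubule markers, listed to look for other tissue, summed to at most 7.70 CPM, with Aqp2 at 0 in every library.

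In WT liver, PRA raised 4 of the 9 genes and lowered 0 (edgeR adjusted p at or under 0.05), where 9.74% of all tested genes were higher and 12.3% lower. None of the 9 was lower at an unadjusted p under 0.05 or by DESeq2 or limma-voom in either genotype. The genes that rose were Foxo1, Klf15, Pck1 and Slc37a4, 2 transcriptional regulators, the cytosolic entry enzyme and the glucose-6-phosphate transporter. G6pc, Fbp1, Pcx, Ppargc1a and Irs2 did not pass. The median log2 fold change of the 9 genes was 0.45, beside -0.03 over all tested genes. In knockout liver, 7 of the 9 rose and 0 fell, where 7.96% of all tested genes were higher and 8.38% lower. G6pc, Pcx and Ppargc1a joined the other 4, and the median log2 fold change was 0.80, beside -0.00 over all tested genes. The difference between the 2 responses was tested by itself and passed for 0 of 9 genes, as described below. In bulk tissue, fewer cells of a type and less RNA per cell cannot be told apart.

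**Figure D1:**
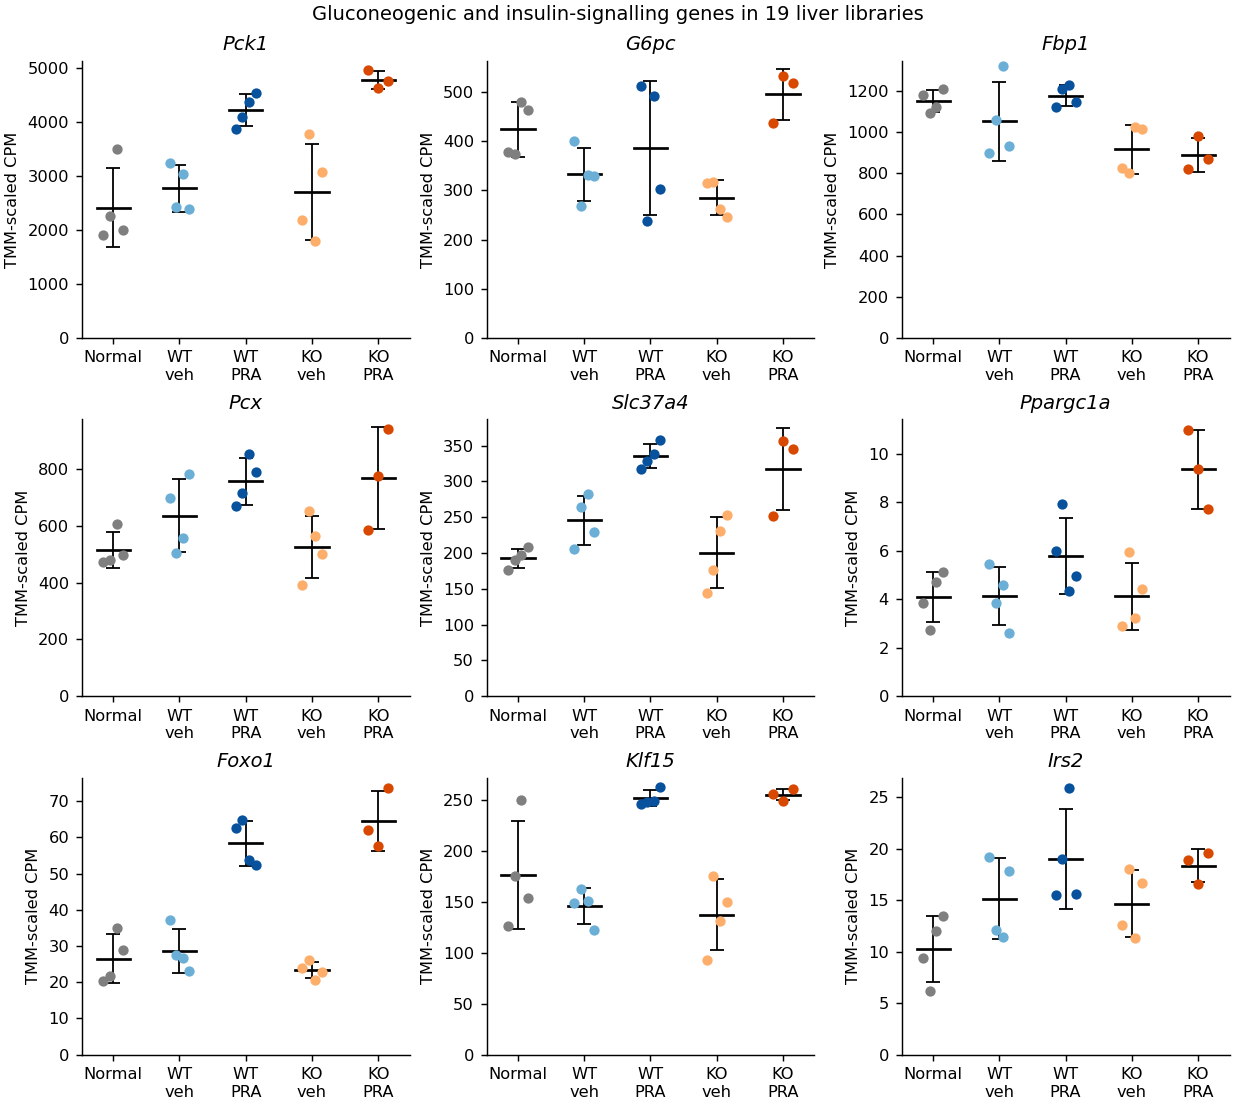
Level of each of the 9 genes in every library, in TMM-scaled CPM on a linear axis. Each library is 1 point, with a bar at the mean of each group and error bars of the SD. For Foxo1, Klf15 and Pck1 all 7 PRA points lie above the 8 vehicle points, whereas the Fbp1 means lie close together, between 891 and 1178 CPM.

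Pcx (ENSMUSG00000024892, chromosome 19) makes oxaloacetate from pyruvate in mitochondria. It ranged from 473 to 608 CPM in normal, 506 to 785 in WT vehicle and 670 to 856 in WT PRA libraries, so the WT groups overlapped, and the log2 fold change was 0.25 ± 0.16 (SE, edgeR adjusted p = 0.295). In the knockout, vehicle libraries held 392, 652, 565 and 501 CPM and PRA libraries 586, 778 and 944. Those groups overlapped at their edges, and Pcx passed at 1.46-fold (log2 0.54 ± 0.18, edgeR adjusted p = 0.0386). The call was lost in 9 of 15 alternatives, among them leaving out knockout vehicle replicate 1, 3 or 4 or knockout PRA replicate 2 or 3, and without knockout PRA replicate 3 the log2 fold change was 0.37 (edgeR adjusted p = 0.204).

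Pck1 (ENSMUSG00000027513, chromosome 2) turns oxaloacetate into phosphoenolpyruvate and is controlled mostly through its transcription. It was the most abundant of the 9 per length, at 702 RPKM (CPM divided by the length of the exon union) in normal and 1393 in knockout PRA libraries. The normal libraries held 1894, 2251, 3489 and 1996 CPM and the WT vehicle libraries 3236, 2423, 3030 and 2380. After PRA the WT libraries held 3866, 4082, 4364 and 4528 CPM, each above every normal and WT vehicle library. Pck1 thus went from 2767 ± 431 to 4210 ± 294 CPM (SD, n = 4 each), a 1.52-fold rise (log2 0.61 ± 0.20, 95% interval 0.19 to 1.02, edgeR adjusted p = 0.0356). That call did not hold without WT vehicle replicate 2 or 4 or WT PRA replicate 2, 3 or 4, where the adjusted p was 0.0593 to 0.0956. In the knockout, vehicle libraries held 2184, 3775, 1790 and 3068 CPM and PRA libraries 4957, 4632 and 4744. These groups did not overlap, and the rise was 1.77-fold (0.82 ± 0.21, edgeR adjusted p = 0.0122), past the threshold in all 15 alternatives. Levels were closer together after PRA: the coefficient of variation was 6.99% in WT and 3.45% in knockout PRA libraries, beside 15.6% after vehicle in WT, 33.0% after vehicle in the knockout and 30.6% in normal liver. The 3 knockout PRA libraries all stood above the 4 WT PRA libraries, with a log2 difference of 0.18 ± 0.22 that did not pass (edgeR adjusted p = 0.754).

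Fbp1 (ENSMUSG00000069805, chromosome 13) varied least, with group means spanning 0.41 on the log2 scale. Its means were 1152 ± 52.7 CPM in normal, 1053 ± 191 in WT vehicle and 1178 ± 50.9 in WT PRA libraries. They were 917 ± 119 CPM after vehicle and 891 ± 83.4 after PRA in the knockout. PRA gave log2 fold changes of 0.16 ± 0.11 in WT (95% interval -0.08 to 0.40, edgeR adjusted p = 0.332) and -0.04 ± 0.12 in the knockout (-0.30 to 0.21, edgeR adjusted p = 0.860). Fbp1 alone among the 9 had a knockout response below 0.

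G6pc (ENSMUSG00000078650, chromosome 11) performs the last step and frees glucose for export. Normal libraries held 378, 374, 480 and 464 CPM, and WT vehicle libraries 401, 268, 332 and 330. The WT PRA libraries fell into a high and a low pair, at 513 and 493 CPM in replicates 1 and 3 and at 238 and 303 in replicates 2 and 4. The low pair lay within or below the vehicle range, and the log2 fold change was 0.22 ± 0.19 (95% interval -0.19 to 0.62, edgeR adjusted p = 0.456). The knockout libraries held 315, 317, 262 and 246 CPM after vehicle and 436, 533 and 518 after PRA, with no overlap. They spread less: the highest library was 1.29 times the lowest after vehicle and 1.22 times after PRA, beside 2.15 times in WT PRA. The knockout rise was 1.74-fold (0.80 ± 0.21, edgeR adjusted p = 0.0117) and was lost without knockout PRA replicate 2 (0.74, edgeR adjusted p = 0.0527). Pck1, in contrast, was highest in WT PRA replicate 4, where G6pc was low.

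Slc37a4 (ENSMUSG00000032114, chromosome 9) held 206, 265, 283 and 229 CPM in the WT vehicle libraries and 317, 328, 338 and 357 in the WT PRA libraries. These groups were fully apart, and the means of 246 ± 34.5 and 335 ± 17.0 CPM gave a 1.36-fold rise (0.45 ± 0.15, edgeR adjusted p = 0.0318). It no longer passed without WT vehicle replicate 1 or 4 or WT PRA replicate 2, 3 or 4 (edgeR adjusted p = 0.0553 to 0.0801) and with upper quartile scaling (0.0570). Knockout vehicle libraries held 144, 176, 231 and 253 CPM and knockout PRA libraries 252, 356 and 345. The lowest PRA library was just under the highest vehicle library, and the rise of 1.58-fold (0.66 ± 0.16, edgeR adjusted p = 0.00577) passed in all 15 alternatives.

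Foxo1 (ENSMUSG00000044167, chromosome 3), the insulin-restrained forkhead factor that activates G6pc and Pck1, had the widest range of group means of the 9, 1.46 on the log2 scale. Normal libraries held 20.4, 21.8, 34.95 and 29.0 CPM, and WT vehicle libraries 37.3, 27.5, 26.6 and 23.1. WT PRA libraries held 62.6, 64.8, 53.9 and 52.4 CPM, all above every normal and WT vehicle library. The means of 28.6 ± 6.08 and 58.4 ± 6.19 CPM made a 2.04-fold rise (1.03 ± 0.16, edgeR adjusted p = 0.000104). Knockout libraries held 23.8, 26.2, 20.5 and 22.9 CPM after vehicle and 62.1, 57.7 and 73.8 after PRA. The groups were again apart, with means of 23.4 ± 2.33 and 64.5 ± 8.31 CPM and a 2.76-fold rise (1.47 ± 0.17, edgeR adjusted p = 7.75e-06). Foxo1 passed in all 16 alternatives in WT and all 15 in the knockout.

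Ppargc1a (ENSMUSG00000029167, chromosome 5), the coactivator PGC-1alpha, induced by glucagon and fasting, was the least abundant of the 9 per length, at 0.62 RPKM in normal liver, with 144 to 616 counts per library. WT vehicle libraries held 5.45, 3.86, 4.57 and 2.62 CPM and WT PRA libraries 5.97, 7.92, 4.34 and 4.97. The groups overlapped and the log2 fold change of 0.49 ± 0.26 did not pass (95% interval -0.05 to 1.02, edgeR adjusted p = 0.185). Knockout vehicle libraries held 2.90, 5.94, 3.22 and 4.43 CPM and knockout PRA libraries 11.0, 9.35 and 7.71. These were apart, with a rise of 2.26-fold (1.18 ± 0.27, edgeR adjusted p = 0.00523) that passed in all 15 alternatives. Gene models that overlap it had counts of their own equal to 2.30% of the Ppargc1a count.

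Klf15 (ENSMUSG00000030087, chromosome 6), a glucocorticoid-induced factor that promotes amino acid use for gluconeogenesis, held 148, 163, 150 and 122 CPM in WT vehicle libraries and 246, 248, 249 and 263 in WT PRA libraries. The groups were apart, and the means of 146 ± 17.3 and 252 ± 7.78 CPM gave a 1.73-fold rise (0.79 ± 0.18, edgeR adjusted p = 0.00301). Knockout vehicle libraries held 92.9, 175, 131 and 150 CPM and knockout PRA libraries 256, 249 and 261. They too were apart, at 1.86-fold (0.89 ± 0.19, edgeR adjusted p = 0.00259), and the call passed in all alternatives in both genotypes. The 7 PRA libraries spanned only 246 to 263 CPM. The coefficient of variation was 3.09% in WT PRA and 2.21% in knockout PRA, beside 11.8% in WT vehicle, 25.3% in knockout vehicle and 30.1% in normal libraries.

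Irs2 (ENSMUSG00000038894, chromosome 8) encodes the adaptor that links the insulin receptor to phosphatidylinositol 3-kinase. It held 19.2, 12.1, 11.5 and 17.8 CPM in WT vehicle and 15.5, 18.99, 25.9 and 15.6 in WT PRA libraries. The knockout libraries held 12.6, 18.1, 11.3 and 16.7 CPM after vehicle and 18.9, 16.6 and 19.6 after PRA. Groups overlapped in both genotypes. The log2 fold changes were 0.32 ± 0.23 in WT (95% interval -0.16 to 0.81, edgeR adjusted p = 0.344) and 0.33 ± 0.25 in the knockout (-0.20 to 0.85, edgeR adjusted p = 0.416).

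**Figure D2:**
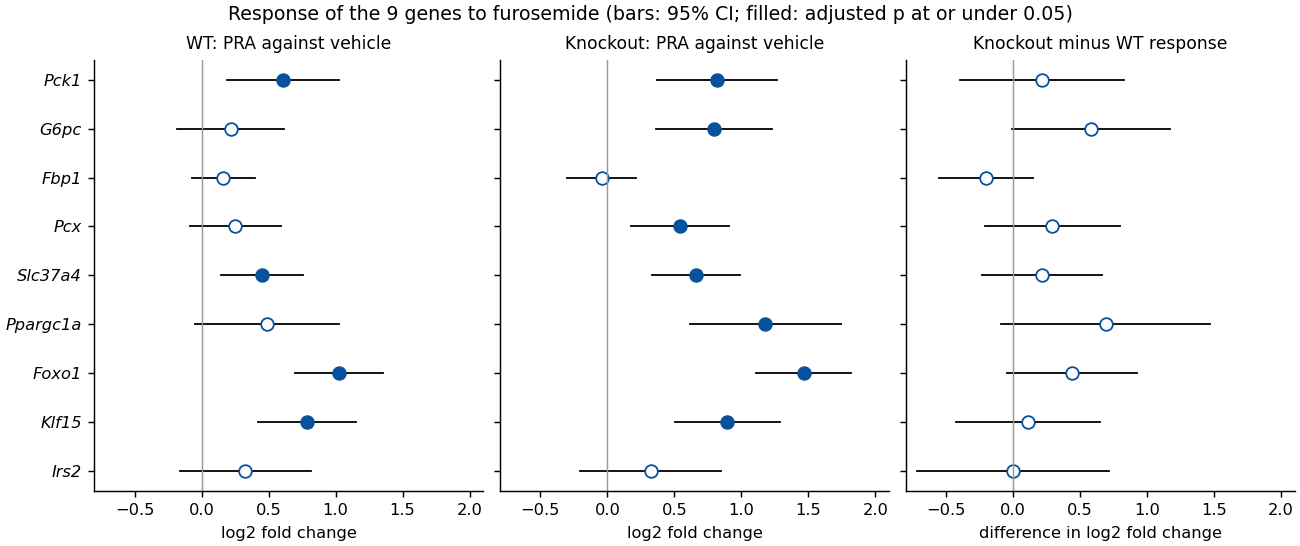
Log2 fold change of PRA against vehicle for the 9 genes in WT and knockout liver, with 95% intervals of the fit and filled points for an edgeR adjusted p at or under 0.05. Foxo1 lies highest among the 9 in both genotypes (1.03 and 1.47), and the WT and knockout intervals of each gene overlap.

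The knockout response minus the WT response was tested for each gene. It passed for 0 of the 9 by edgeR, where 0.475% of all tested genes passed, for 0 at an unadjusted p under 0.05 and for 0 by DESeq2 and by limma-voom. The difference was above 0 for 8 of the 9. G6pc came nearest by unadjusted p, with 0.58 ± 0.28 (95% interval -0.01 to 1.17, edgeR adjusted p = 0.568). Ppargc1a had 0.69 ± 0.37 (-0.09 to 1.47, edgeR adjusted p = 0.640) and Foxo1 0.44 ± 0.23 (-0.04 to 0.92, edgeR adjusted p = 0.619). For Irs2 it was 0.00 ± 0.34 (-0.71 to 0.71, edgeR adjusted p = 0.9997). So G6pc, Pcx and Ppargc1a, past the threshold in the knockout and not in WT, were not shown to respond differently in the 2 genotypes, and the intervals do not show that the responses were alike.

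Knockout and WT livers were also compared within each treatment. After vehicle, 0 of the 9 genes passed (edgeR, where 0.0706% of all genes passed), 0 had an unadjusted p under 0.05, and 0 passed by DESeq2 or limma-voom. All 9 log2 differences were below 0, from -0.29 for Foxo1 to -0.00 for Ppargc1a. The groups overlapped for every 1 of the 9, and the share of all tested genes with overlapping groups was not counted. Under PRA, 0 of the 9 passed (edgeR, where 3.8% of all genes passed), 2 had an unadjusted p under 0.05, and 1 passed by DESeq2 and by limma-voom. That gene was Fbp1, the fructose bisphosphatase. It held 1124, 1211, 1231 and 1147 CPM in WT PRA and 821, 983 and 868 in knockout PRA libraries, which did not overlap. The log2 difference was -0.40 ± 0.12 (95% interval -0.66 to -0.14, edgeR adjusted p = 0.0754), and it passed by DESeq2 (adjusted p = 0.0256), by limma-voom (adjusted p = 0.0232) and in edgeR with only these groups in the model (adjusted p = 0.0291). Ppargc1a was the other at an unadjusted level, 0.69 ± 0.27 higher in the knockout (0.12 to 1.26, edgeR adjusted p = 0.189), with overlapping groups.

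Vehicle injection in WT mice moved 0 of the 9 genes past the threshold relative to non-injected liver (edgeR, where 2% of all genes passed). At an unadjusted p under 0.05 there were 2, Irs2 and Slc37a4, and by DESeq2 and limma-voom 0. Irs2 held 9.37, 6.22, 12.0 and 13.4 CPM in normal libraries, and its mean was 10.3 ± 3.17 CPM there beside 15.2 ± 3.93 after vehicle (0.56 ± 0.23, edgeR adjusted p = 0.250). Slc37a4 was at 193 ± 13.4 CPM in normal liver, a log2 difference of 0.35 ± 0.15 (edgeR adjusted p = 0.245). G6pc differed in the other direction, by -0.35 ± 0.19 (edgeR adjusted p = 0.406). For all 9 genes the 2 groups overlapped, and the share of all tested genes that did so was not counted.

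Against non-injected liver, WT PRA raised 6 of the 9 genes and lowered 0 (edgeR), where 13.5% of all genes were higher and 14.9% lower. This comparison shares its PRA libraries with the comparison against vehicle, so it is not independent of it. Foxo1 was 2.197-fold higher (edgeR adjusted p = 2.33e-05), Pck1 1.75-fold (0.00507), Slc37a4 1.74-fold (0.000337) and Pcx 1.47-fold (0.0142). Irs2, which had not passed against vehicle, was 1.85-fold higher (0.89 ± 0.24, edgeR adjusted p = 0.00863), and none of its WT PRA libraries, from 15.5 CPM up, was as low as the highest normal library, 13.4. Klf15 was 1.43-fold higher (edgeR adjusted p = 0.0344), but normal libraries at 126, 176, 250 and 154 CPM overlapped the PRA group. Its call was lost in 9 of 16 alternatives, among them leaving out normal replicate 1, 2 or 4 or any one WT PRA replicate (edgeR adjusted p up to 0.115). G6pc, at 424 ± 55.7 CPM in normal and 387 ± 137 in WT PRA libraries, did not pass (-0.13 ± 0.19, edgeR adjusted p = 0.651). Markers moved in this comparison too, and their part was not tested: 5 of 5 neutrophil, 2 of 5 Kupffer cell, 3 of 7 hepatocyte, 3 of 6 periportal, 3 of 6 pericentral and 1 of 6 endothelial markers were higher, and 2 of 6 endothelial, 2 of 6 stellate cell and 1 of 4 kidney tubule markers lower (edgeR).

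Vehicle-treated knockout liver against normal WT liver gave 0 of 9 by edgeR (3.22% of all genes passed), 3 at an unadjusted p under 0.05 and 0 by DESeq2 and limma-voom. The 3 were G6pc, Fbp1 and Irs2. G6pc was at 246 to 317 CPM in knockout vehicle libraries, below every normal library (374 to 480), with a log2 difference of -0.57 ± 0.19 (edgeR adjusted p = 0.120, and 0.0387 with only these groups in the model). Fbp1 also did not overlap (-0.33 ± 0.11, edgeR adjusted p = 0.128). Genotype and injection cannot be told apart here.

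**Figure D3:**
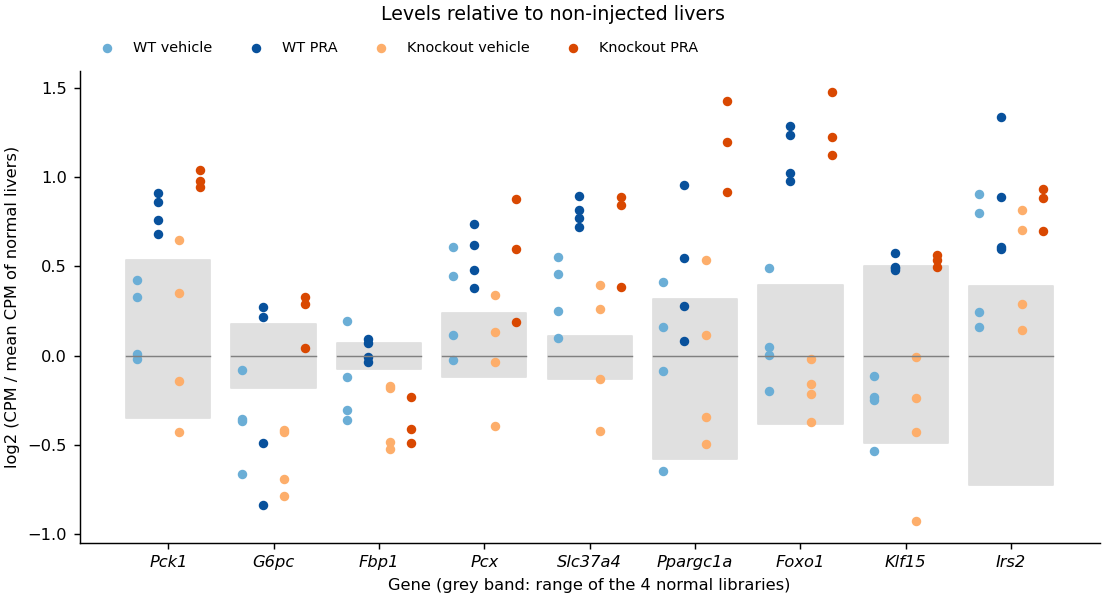
Levels of the 9 genes in each library of the 4 injected groups, as log2 ratios of TMM-scaled CPM to the mean of the normal libraries. The grey band is the range of the normal libraries. All points of every gene except Fbp1 and G6pc lie above 0 in both PRA groups. G6pc points lie below 0 in both vehicle groups, on both sides of 0 in WT PRA and above 0 in knockout PRA.

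Ranked by mean, the knockout PRA group was highest for Pck1, G6pc, Pcx, Ppargc1a, Foxo1 and Klf15, and the WT PRA group for Fbp1, Slc37a4 and Irs2. Most neighbours in these orders overlapped. Exceptions were WT vehicle and WT PRA for Foxo1 and Pck1, and WT PRA and knockout PRA for Pck1. Per length, the enzymes and Slc37a4 stood at 67.4 RPKM (Slc37a4) to 702 RPKM (Pck1) in normal liver, Klf15 at 63.2, and Foxo1, Irs2 and Ppargc1a at 3.06, 1.62 and 0.62.

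Related genes of the pathway were counted in 5 lists of textbook members. By edgeR, 9.74% of all tested genes were higher and 12.3% lower in WT PRA liver, and 7.96% and 8.38% in the knockout. These shares stand beside the counts of all 5 lists. Of 28 other gluconeogenic enzymes and carriers, 7 rose and 2 fell in WT PRA liver (median log2 fold change 0.17), and 7 rose and 0 fell in the knockout (0.23) by edgeR, with 2 lower there at an unadjusted p under 0.05 and 0 by DESeq2. Got1, the cytosolic aspartate aminotransferase that supplies oxaloacetate to Pck1, rose 2.00-fold in WT, from 553 ± 131 to 1105 ± 158 CPM (edgeR adjusted p = 0.00368), and 2.81-fold in the knockout (0.000333). Sds, serine dehydratase, which feeds serine carbon into pyruvate, rose 2.88-fold in WT (edgeR adjusted p = 0.00438) and 4.42-fold in the knockout (0.00081). Slc2a2, the glucose transporter GLUT2 of the hepatocyte surface, fell in WT from 262 ± 24.0 to 182 ± 11.9 CPM (-0.53 ± 0.11, edgeR adjusted p = 0.00167), and in the knockout it changed by -0.29 ± 0.12 without passing (adjusted p = 0.106). The 7 higher in the knockout became 4 without knockout vehicle replicate 2 or knockout PRA replicate 2, the 0 lower there became 1 without knockout vehicle replicate 1 and 2 by limma-voom, and the 2 lower in WT became 1 in 6 of the 8 fits that left out a library and 4 without WT vehicle replicate 1.

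**Figure D4:**
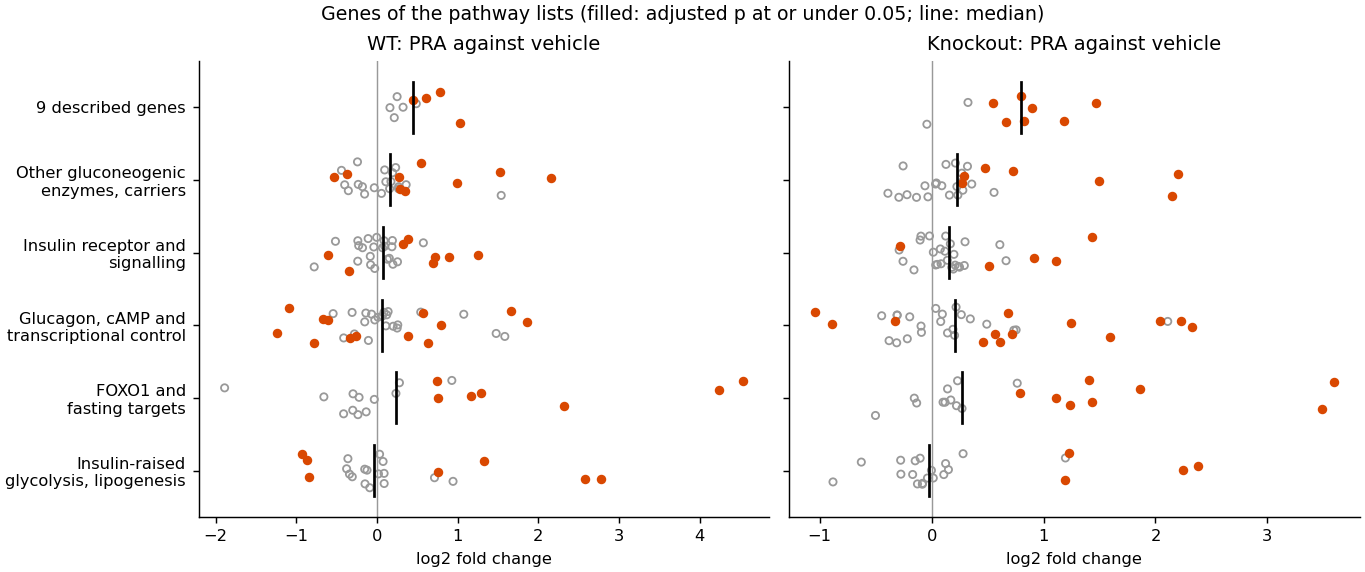
Log2 fold changes of PRA against vehicle for the 9 genes (top row) and the tested genes of the 5 lists in WT and knockout liver, 1 point per gene, filled where the edgeR adjusted p was at or under 0.05, with a bar at the median. Medians of the 5 lists lie between -0.03 and 0.27, beside 0.45 (WT) and 0.80 (knockout) for the 9 genes, and the genes within a list spread to both sides of 0.

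Of 30 genes of the insulin receptor and its downstream signalling, 6 rose and 2 fell in WT (median 0.08), and 4 rose and 1 fell in the knockout (0.15). Trib1, a pseudokinase of the Tribbles family, rose 2.39-fold in WT, from 44.0 ± 2.84 to 105 ± 8.75 CPM (adjusted p = 7.79e-08 in edgeR), and 2.70-fold in the knockout (9.27e-08). Pik3r1, the regulatory subunit of phosphatidylinositol 3-kinase, rose 1.85-fold in WT (edgeR adjusted p = 6.65e-06) and 1.88-fold in the knockout (1.82e-05). Its WT vehicle level, 42.1 ± 2.33 CPM, was below the normal level of 59.5 ± 8.78 (-0.50 ± 0.11, edgeR adjusted p = 0.0174; not passed without normal replicate 3 or 4, adjusted p up to 0.0616), and WT PRA was 1.31-fold above normal (adjusted p = 0.0103). Ptpn1, a phosphatase that removes phosphate from the insulin receptor, rose in WT 1.64-fold, from 22.6 ± 4.12 to 37.1 ± 2.43 CPM (adjusted p = 0.000106 in edgeR), and stood at 21.1 ± 1.35 and 22.9 ± 3.31 CPM in the knockout (adjusted p = 0.555). The difference between these responses did not pass (-0.60, edgeR adjusted p = 0.156). Foxo3, a relative of Foxo1, rose 1.31-fold in WT (edgeR adjusted p = 0.0230) and 2.16-fold in the knockout (4.79e-06), with a difference of 0.72 that did not pass (adjusted p = 0.0694). The 1 lower in the knockout became 0 without knockout PRA replicate 2 or 3 and 2 without knockout vehicle replicate 2.

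Of 35 genes of glucagon, cAMP and transcriptional control, 6 rose and 7 fell in WT (median 0.07), and 10 rose and 3 fell in the knockout (0.21). Hnf4a, a hepatocyte nuclear receptor that works with Ppargc1a, rose 1.49-fold in WT (edgeR adjusted p = 0.00318) and 1.65-fold in the knockout (0.00115). Ppargc1b, the paralog of Ppargc1a, fell in WT from 4.84 ± 1.21 to 2.05 ± 0.413 CPM (-1.24 ± 0.24, edgeR adjusted p = 0.000866), and was 3.33 ± 0.624 after 4.12 ± 1.58 CPM in the knockout (adjusted p = 0.446). Cebpa, a liver-enriched factor that also acts on the Pck1 promoter, fell in WT (-0.60 ± 0.12, edgeR adjusted p = 0.001) and changed by -0.38 ± 0.13 in the knockout (adjusted p = 0.0502). Lpin1, a phosphatidate phosphatase that also coactivates with Ppargc1a, rose 1.74-fold in WT (edgeR adjusted p = 0.0417) and 4.67-fold in the knockout (6.11e-05), from 115 ± 16.2 to 539 ± 140 CPM. The 3 lower in the knockout became 1 without knockout vehicle replicate 1 or knockout PRA replicate 1, and 0 without knockout PRA replicate 2.

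Of 19 further FOXO1 and fasting targets that insulin lowers, 7 rose and 0 fell in WT by edgeR (median 0.24), and 8 rose and 0 fell in the knockout (0.27). Lower in WT were 4 at an unadjusted p under 0.05, 0 by DESeq2 and 1 by limma-voom, and lower in the knockout 0 by each of these. Pnpla2, the triglyceride lipase ATGL, rose 1.68-fold in WT (edgeR adjusted p = 0.000143) and 1.73-fold in the knockout (0.000232). Angptl4, a lipoprotein lipase inhibitor, rose 1.68-fold in WT (edgeR adjusted p = 0.0101) and 2.35-fold in the knockout (0.00054). Other genes of this list, not described here, rose more than both in each genotype. Of 22 glycolytic and lipogenic genes that insulin raises, 4 rose and 3 fell in WT (median -0.03), and 4 rose and 0 fell in the knockout by edgeR (-0.02), where 1 was lower at an unadjusted p under 0.05, by DESeq2 and by limma-voom. Srebf1, the lipogenic factor that insulin raises, fell in WT from 190 ± 20.4 to 99.7 ± 3.56 CPM (-0.93 ± 0.20, edgeR adjusted p = 0.00251), and was 154 ± 44.1 after 158 ± 50.4 CPM in the knockout (adjusted p = 0.934). Ppp1r3c, a glycogen-targeting subunit of protein phosphatase 1, rose 5.96-fold in WT (edgeR adjusted p = 0.000204) and 4.73-fold in the knockout (0.0012). The 3 lower in WT became 1 without WT vehicle replicate 1, the 4 higher in the knockout became 2 without knockout PRA replicate 2, and the 0 lower there became 1 without knockout vehicle replicate 2. In the list of FOXO1 and fasting targets, the 0 lower in WT became 1 without WT PRA replicate 1.

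The difference between the responses passed for 0 genes of the 5 lists by edgeR, where 0.475% of all tested genes passed. There were 13 at an unadjusted p under 0.05, 2 past by DESeq2 (Ptpn1 and Foxo3) and 1 by limma-voom (Ptpn1).

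Genes whose pattern over the 19 libraries lay nearest to a member were sought among 10069 others with a mean of at least 2 CPM, by the root mean square (RMS) difference of centred log2 CPM. For Foxo1 they were Trib1 (0.169) and Susd6 (0.187), where the spread of Foxo1 about its own mean was 0.641. Trib1 averaged 45.8, 44.0, 105, 37.9 and 102 CPM in normal, WT vehicle, WT PRA, knockout vehicle and knockout PRA libraries, rising after PRA in both genotypes as Foxo1 did. For Pck1 they were Klf3 (0.197) and Mpzl2 (0.217), beside its own 0.479. For Ppargc1a the nearest, Btg1 (0.305) and Aff1 (0.313), followed it more loosely, beside its own 0.562.

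**Figure D5:**
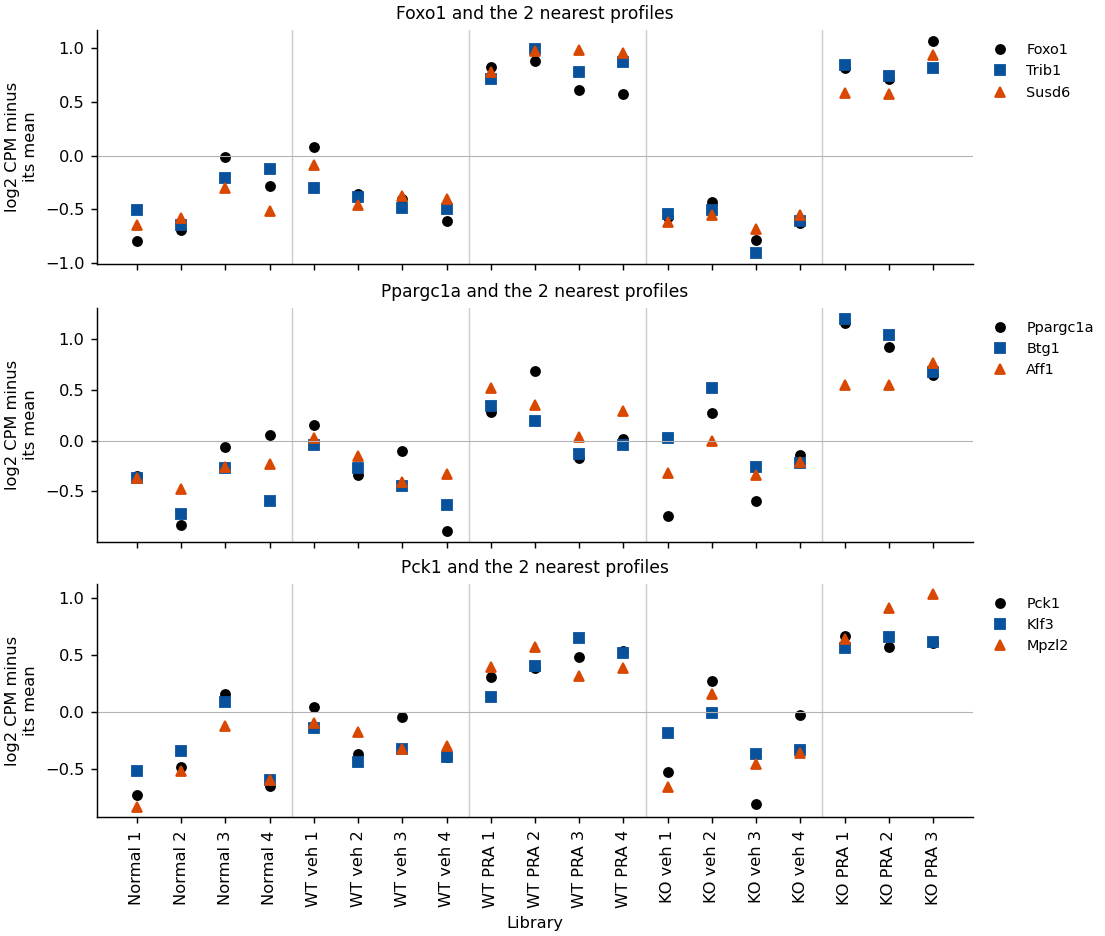
Centred log2 CPM over the 19 libraries for Foxo1, Ppargc1a and Pck1, each with the pair of other genes nearest in pattern. Trib1 and Susd6 run closest to their member, at RMS differences of 0.169 and 0.187.

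Markers of cell types and zones moved with PRA as well, and their part in these results was not tested. Over all tested genes, 9.74% were higher and 12.3% lower in WT, and 7.96% and 8.38% in the knockout (edgeR). All 5 tested neutrophil markers rose in WT and 2 of 5 in the knockout, and the sums of the 6 matched markers were 0.636 to 1.18 CPM in WT vehicle, 8.44 to 10.4 in WT PRA, 2.24 to 3.96 in knockout vehicle and 2.85 to 10.8 in knockout PRA libraries. Of 6 sinusoidal endothelial markers, 5 fell and 1 rose in WT and 3 fell and 1 rose in the knockout, and of 6 stellate cell markers 3 and 2 fell. Of 6 periportal hepatocyte markers, the zone where gluconeogenesis is most active, 1 rose in WT and 3 in the knockout. Sds, already counted among the gluconeogenic enzymes, is the 1 in WT and is among the 3. The sums of the 6 were 7319 to 12197 CPM in WT vehicle and 11937 to 14424 in WT PRA, and 6728 to 10076 and 11845 to 14365 in the knockout. Of 6 pericentral markers 0 rose by edgeR in either genotype (1 in WT at an unadjusted p under 0.05, by DESeq2 and by limma-voom), and 1 was lower in the knockout. Of 5 Kupffer cell markers 0 passed in either comparison with vehicle by edgeR, DESeq2 or limma-voom, with 1 higher in WT at an unadjusted p under 0.05. Of 5 cholangiocyte markers 1 rose in WT by edgeR and 0 by DESeq2 or limma-voom. Of 7 hepatocyte markers 2 rose in WT by all 3 tools, and in the knockout 0 rose by edgeR, 3 were higher at an unadjusted p under 0.05, 1 by DESeq2 and 2 by limma-voom. Adipocyte markers summed to at most 4.75 CPM, and pancreas markers to 12.6 to 26.8 CPM, nearly all of it Cela1, with Cpa1 and Pnlip at 0 in every library.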

How the data were processed

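The authors deposited raw counts per gene for 19 libraries, as a series table and as 1 file per library with the same counts. Per the submitters' processing notes, the tools were HTSeq 0.11.3, SAMtools 1.13 and HISAT2 2.2.1, on build GRCm39. The sources used here give neither the strand setting nor the annotation release, so reads of overlapping or antisense genes cannot be told apart. Such genes were annotated for 5 of the 9 members and had counts of their own equal to at most 2.30% of the member's, counted apart from it. Of each library, 66.95% to 71.71% was counted in genes and 14.07% to 19.15% was not uniquely placed. Such summary lines entered neither library sizes nor tests.

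Groups and replicate numbers came from the sample titles. Counts were fitted with edgeR 4.0.16 (R 4.3.3): filterByExpr, TMM scaling and a robust quasi-likelihood fit to all libraries with 1 mean per group, with 8 contrasts. Benjamini-Hochberg adjustment ran over 15570 genes in each, with a threshold of 0.05. Standard errors came from the log2 fold change and its F statistic. RPKM used exon union lengths from GENCODE M21 (GRCm38), and 52083 of 55416 gene lines had a symbol. The procedure was tested on simulated counts. Counts of replicates differed by a chi-square of at least 22.73 per degree of freedom, so no library looked like a repeat. Alternatives were RLE and upper quartile scaling, other low-count filters, DESeq2 1.42.0, limma-voom (limma 3.58.1), a replicate block, only the groups compared, and each library left out.

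The 9 genes and the pathway and marker lists were chosen with earlier results of these data known. All 9 are named in every comparison. From each list, up to 4 genes with the smallest adjusted p past the threshold could be named, and those described were taken from these; 1 gene that this rule names is withheld and is not reported here. The nearest genes in pattern were sought for the 3 members with the widest range of group means.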

Additional observations from a re-analysis of the deposited data

How the results depend on the processing

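Of the 17 calls on members, 12 held in every alternative run, and over 265 alternatives of them 32 lost the call and 0 reversed. Of the 55 values that did not pass, 4 alternatives brought one past the threshold. Leaving out 1 library at a time, the members past the threshold numbered 2 to 4 for PRA against vehicle in WT (4 with all libraries), 5 to 7 in the knockout (7) and 5 to 6 for WT PRA against normal (6). The 2 came without WT vehicle replicate 4 or WT PRA replicate 2, 3 or 4, where Pck1 and Slc37a4 were lost. Knockout against WT under PRA went from 0 to 1 (Fbp1) with DESeq2, limma-voom and only the groups compared, and knockout vehicle against normal from 0 to 1 (G6pc) with only the groups compared. The cause was not tested. Values that changed sign were in neither setting past the threshold.

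Correlations of deviations from group means between same-numbered libraries were -0.219 to 0.193. At 3 or 4 libraries per group these values do not settle whether the numbers pair samples, and the main fit did not pair them. With the replicate block, 3 members passed for PRA against vehicle in WT and 7 in the knockout, and Pck1 in WT was at 0.60 (edgeR adjusted p = 0.0577).

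The same alternatives were run on the list counts, a choice made after seeing the data. With upper quartile scaling, 4 other gluconeogenic genes in place of 7 rose in the knockout, and 6 glucagon and cAMP genes in place of 3 fell. With limma-voom, 10 of those in place of 6 rose in WT. Ppargc1a had 144 to 616 counts per library.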

Other observations

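The last and the committing step of glucose production did not keep a fixed ratio, a comparison chosen after the values were seen and given as a description. Per 100 Pck1 counts in the same library, G6pc had 13.7 to 23.2 counts in normal liver (18.4 ± 4.11, SD, n = 4) and 11.0 to 13.9 in WT vehicle liver (12.1 ± 1.35). In WT PRA liver the ratio was 13.3 and 11.3 in replicates 1 and 3 and 5.83 and 6.69 in replicates 2 and 4. There G6pc differed between the pairs (513 and 493 against 238 and 303 CPM), while Pck1 spanned 3866 to 4528 CPM. In knockout vehicle libraries the ratio was 14.4 and 14.7 in replicates 1 and 3 and 8.41 and 8.03 in replicates 2 and 4. In that group it was Pck1 that differed (2184 and 1790 against 3775 and 3068 CPM), while G6pc spanned 246 to 317 CPM. Knockout PRA libraries stood at 8.80, 11.5 and 10.9.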
